A study of Mus musculus with 8 samples.

Results

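The genes described here are 10 transcription factor genes of the early response of fibroblasts to growth factors and stress: the Fos family members Fos, Fosb, Fosl1 and Fosl2, the Jun family members Jun, Junb and Jund, and Egr1, Atf3 and Myc. They were taken by symbol from a table of 55401 genes, in which each of the 10 has 1 row, and all 10 were among the 15461 genes that passed the filter on low counts. The table comes from RNA sequencing of 8 lines of mouse embryonic fibroblasts (MEFs), 4 SLMAP3-/- and 4 wildtype (WT), with 1 library per line, made to find transcripts that depend on SLMAP3, a component of the STRIPAK phosphatase and kinase complex. All lines were of strain B6C3F1, were derived from E14.5 embryos after removal of heads and organs, and were transfected with SV40 large T antigen after passage 2 and carried through at least 5 splits until they were immortal. The knockout allele was made by Cre recombination of a floxed Slmap exon, with Cre driven by the cytomegalovirus promoter, so that the whole embryo lacked it. SV40 large T antigen, which binds p53 and the retinoblastoma protein, was present in both genotypes, and the cultures grew in medium with fetal bovine serum, itself a source of the growth factors that induce these genes.

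AP-1 is a dimer of basic leucine zipper proteins. Jun proteins pair with each other or with Fos proteins, whereas Fos proteins need a Jun partner to bind DNA, so the mixture of family members sets which dimers can form. Immediate early genes such as Fos and Egr1 need no new protein synthesis for their induction, which runs through ERK signalling, the serum response factor SRF and its ternary complex partners, while stress kinases act on Jun and Atf3, and MYC binds DNA with MAX and raises genes of ribosome production and growth.

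Fos and Jun are the textbook cases of promoters that answer these signals through short elements near the start site, and Atf3 is a stress-induced relative; their promoters are shown for that reason. The sequences are from RefSeq on GRCm38.p6, 250 bases before to 50 bases after the start, written 5′ to 3′ on the strand of the gene. Capitals mark every match, on either strand, to TGACGT (the first bases of the cAMP response element TGACGTCA), to TGACATCA (the variant AP-1 site known from the Jun promoter) and to TATAAA.
Fos, chr12:85473640-85473939, plus strand: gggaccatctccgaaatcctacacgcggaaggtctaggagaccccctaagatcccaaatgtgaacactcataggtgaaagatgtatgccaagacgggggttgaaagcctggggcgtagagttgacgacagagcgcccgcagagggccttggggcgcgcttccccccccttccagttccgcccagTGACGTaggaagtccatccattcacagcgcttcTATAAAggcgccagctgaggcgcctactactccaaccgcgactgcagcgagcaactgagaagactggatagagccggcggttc
Jun, chr4:95052173-95052472, minus strand: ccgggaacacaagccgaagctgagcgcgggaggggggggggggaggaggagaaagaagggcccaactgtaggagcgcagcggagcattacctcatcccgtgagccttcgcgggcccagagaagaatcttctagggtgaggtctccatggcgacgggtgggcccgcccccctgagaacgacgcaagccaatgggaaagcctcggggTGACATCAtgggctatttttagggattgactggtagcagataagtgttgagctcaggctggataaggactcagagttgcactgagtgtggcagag
Atf3, chr1:191183284-191183583, minus strand: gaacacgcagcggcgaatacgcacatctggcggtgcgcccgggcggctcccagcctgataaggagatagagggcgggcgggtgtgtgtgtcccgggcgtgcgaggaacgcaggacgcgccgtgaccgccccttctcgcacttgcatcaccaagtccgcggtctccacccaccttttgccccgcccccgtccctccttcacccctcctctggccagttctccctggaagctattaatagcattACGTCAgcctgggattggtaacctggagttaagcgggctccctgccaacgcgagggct
The Fos promoter held TGACGT starting 66 bases before the start site and TATAAA starting 33 bases before it. The Jun promoter held TGACATCA starting 45 bases before the start. In Atf3 the match was ACGTCA, the same element on the opposite strand, 8 bases before the start. RefSeq promoters could be matched for 7 of the 10 genes, Atf3, Fos, Fosb, Fosl2, Jun, Junb and Jund, and TGACGT was present in 2 of these 7 and in 7.51% of 32851 mouse promoters of the same length. TGACATCA was present in 1 of the 7 and in 3.62% of all promoters. None of the 7 held the full TGACGTCA (1.79% of all promoters), the AP-1 site TGANTCA (7.81%), the MYC-type E-box CACGTG (7.15%) or a CArG box, the core of the serum response element (1.63%), within these 300 bases, and the GC box GGGCGG was present in 5 of them and in 35.7% of all promoters. A TGACGTCA site would also count as TGACGT. In GENCODE M21 the longest Atf3 model begins upstream of this RefSeq start, while the Jund gene begins downstream of its whole RefSeq promoter (chr8:70697489-70697788), a sequence in which no motif was matched.

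The labels and the cells were checked with genes outside the group. Slmap, the targeted gene, was at 44.3, 32.7, 36.3 and 39.7 counts per 1000000 (CPM) in SLMAP3-/- replicates 1 to 4 and at 124, 139, 143 and 141 CPM in WT replicates 1 to 4, so the genotypes did not overlap (log2 fold change -1.84 ± 0.11 SE, adjusted p = 0.00119, edgeR). CPM here are scaled between libraries by TMM. The 10 fibroblast markers summed to 15878 to 24058 CPM in every line, against at most 40.5 CPM for 5 endothelial, 4.71 CPM for 5 epithelial, 4.94 CPM for 5 blood and 24.2 CPM for 5 muscle markers. The 5 neural markers, which include the intermediate filament gene Nes, reached 80.5 to 171 CPM in SLMAP3-/- and 106 to 428 CPM in WT lines; 3 of the 25 markers of other cell types were at 0 in every line, and the part of these cells in the results was not tested. In bulk RNA, fewer cells of a type and less RNA per cell cannot be told apart. Libraries held 49879059 to 63322486 estimated counts, and the lowest count of any of the 10 genes in any line was 116.

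The Jun family and Egr1 were the most abundant of the group, and Fos, Atf3 and Fosb the least. Because reads per gene grow with transcript length, levels of different genes are compared as CPM per kb of annotated exon. Jund, the family member known for steady expression in resting cells, was highest at 98.8 ± 8.86 CPM per kb (SD, n = 8 lines). Junb followed at 67.6 ± 17.6, Jun at 52.6 ± 15.0, Egr1 at 43.0 ± 14.6, Myc at 40.5 ± 17.4, Fosl2 at 25.6 ± 6.70 and Fosl1 at 19.5 ± 8.82 CPM per kb. Fos was at 7.12 ± 2.19, Atf3 at 3.69 ± 1.79 and Fosb at 0.791 ± 0.447 CPM per kb. Each gene was above the next in this order in at least 6 of the 8 lines, except that Egr1 was above Myc in only 5, a pair that did not differ beyond its spread. Fosl2 was above Fosl1 in 6 lines.

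**Figure D1:**
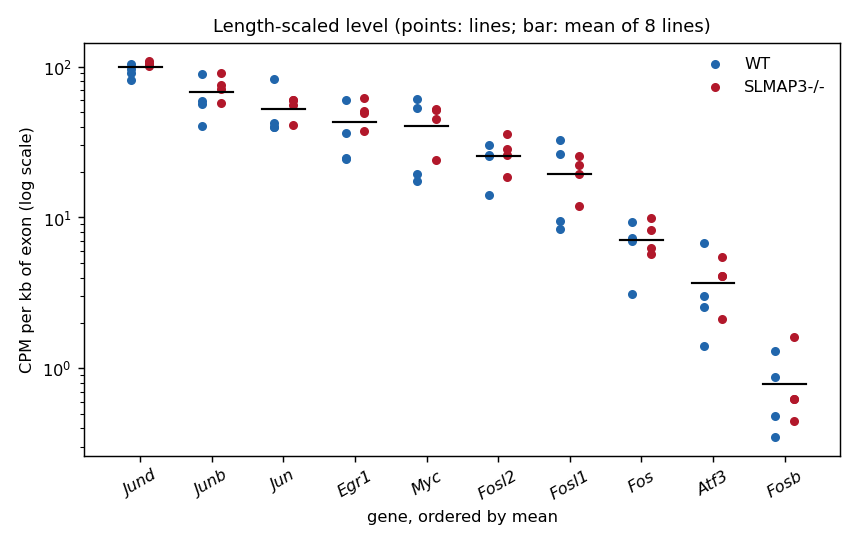
TMM-normalized CPM per kb of exon (log axis) of the 10 genes in each of 4 WT (blue) and 4 SLMAP3-/- (red) lines, with the mean of 8 lines as a bar. The means run from 98.8 for Jund to 0.791 for Fosb, and Egr1 and Myc, neighbours in the order, overlap.

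Per kb, the Fos family pool was mainly its Fra members. Fosl2 (Fra-2) made up 48.7% ± 5.70 of the summed Fos family level (SD, n = 8 lines) and Fosl1 (Fra-1) 35.3% ± 8.64, while Fos itself, the inducible founder, made up 14.46% ± 6.04 and Fosb 1.46% ± 0.582. In the Jun family, Jund made up 45.9% ± 6.84, Junb 30.4% ± 3.83 and Jun 23.7% ± 3.95. Fosl2 held 48.9% ± 2.62 of the Fos family in SLMAP3-/- and 48.5% ± 8.29 in WT lines (n = 4 each), and Jund held 45.2% ± 3.90 and 46.5% ± 9.65 of the Jun family. These shares were not tested for a difference. Over the 8 lines, Fosl1 ranged from 22.2% to 47.1% of the Fos family and Fos from 5.52% to 24.1%.

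No difference between SLMAP3-/- and WT MEFs was detected for any of the 10 genes. No member had an adjusted p under 0.05 by edgeR, beside 0.00647% of all tested genes, which is Slmap alone. No member had an unadjusted p under 0.05 by edgeR, DESeq2 or limma-voom, beside 1.81% of tested genes by edgeR, and in no member did the lines of the genotypes stand apart, beside 1.25% of tested genes. All 10 estimates were above 0, from 0.038 for Fosl1 to 0.46 for Egr1 on the log2 scale, with a median of 0.18 against -0.0014 over all tested genes. The members were measured in the same 8 lines, so 10 estimates of 1 sign are not 10 separate observations, and 6 of them turned negative when some single line was left out. The p-values set each difference between genotypes against the spread between lines, which these tests estimate partly from other genes.

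**Figure D2:**
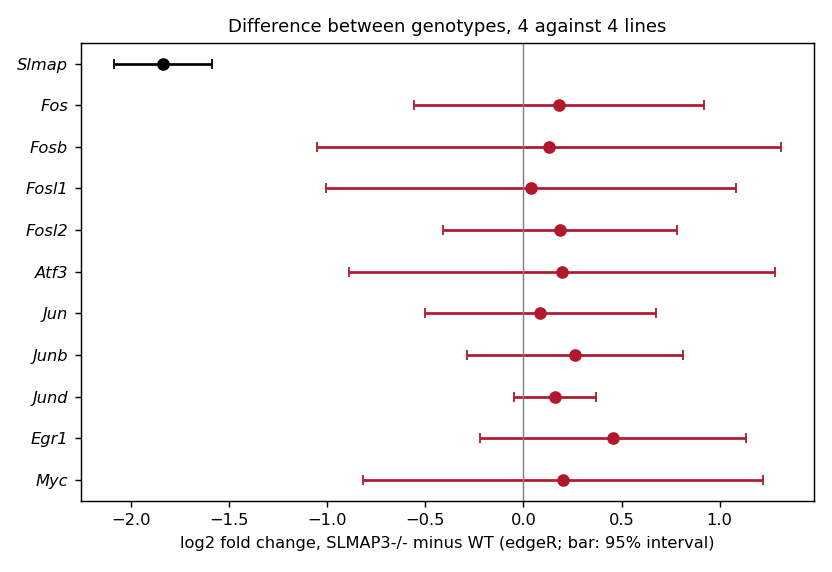
Log2 fold change of SLMAP3-/- against WT lines (edgeR, 4 against 4) for Slmap (black) and the 10 genes (red), with 95% intervals. The interval of Slmap lies between -2.09 and -1.59, and the interval of every member includes 0.

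Among the Fos family, Fos was at 14.7, 13.5, 19.5 and 23.4 CPM in SLMAP3-/- replicates 1 to 4 and at 7.29, 22.1, 17.1 and 16.3 CPM in WT replicates 1 to 4. WT replicate 1 was the lowest by a wide margin and the other 7 lines lay within 13.5 to 23.4 CPM. The log2 fold change was 0.18 ± 0.32 (SE, edgeR), with a 95% interval from 0.68-fold to 1.89-fold, and the estimate was -0.051 without WT replicate 1. Fosb, the closest relative of Fos and one that encodes a full-length and a truncated protein, was at 3.91, 10.0, 3.92 and 2.78 CPM in SLMAP3-/- and at 5.50, 8.15, 2.19 and 3.01 CPM in WT lines. Replicate 2 was the highest line of Fosb in each genotype, and without SLMAP3-/- replicate 2 the log2 fold change of 0.13 ± 0.52 became -0.41.

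Fosl1, the Fos family gene most often raised in migrating and transformed cells, was at 39.5, 51.8, 24.1 and 45.1 CPM in SLMAP3-/- and at 53.8, 66.2, 17.0 and 19.3 CPM in WT lines. Both the highest and the lowest values of Fosl1 were WT lines, and the genotype means were 40.1 ± 11.8 and 39.1 ± 24.7 CPM (SD, n = 4 each; log2 fold change 0.038 ± 0.46). Its interval, from 0.50-fold to 2.12-fold, leaves room for changes of that size in either direction. Fosl2 was at 252, 277, 179.5 and 346 CPM in SLMAP3-/- and at 249, 292, 136 and 249 CPM in WT lines. SLMAP3-/- replicate 3 and WT replicate 3 were the lowest lines of Fosl2, and the log2 fold change was 0.19 ± 0.26.

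**Figure D3:**
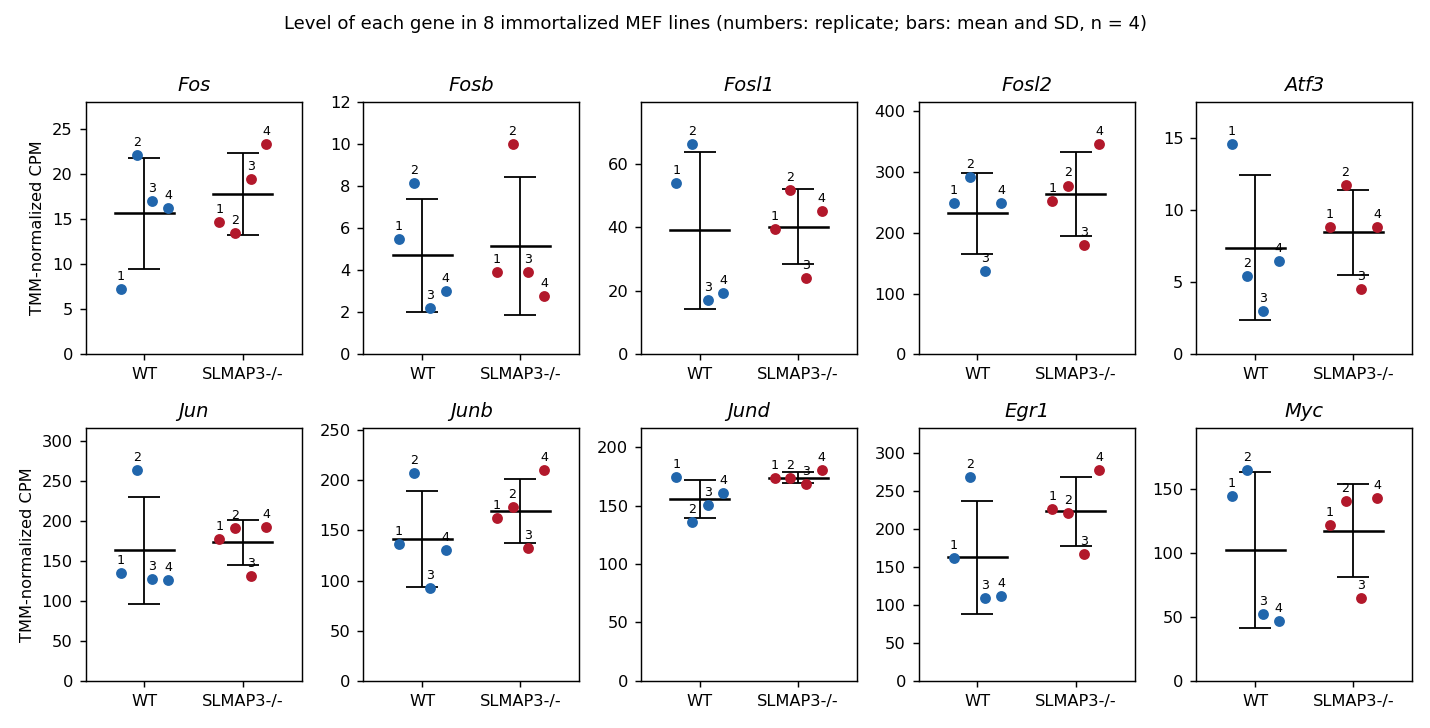
TMM-normalized CPM of each of the 10 genes in 4 WT (blue) and 4 SLMAP3-/- (red) lines, numbered by replicate, with the mean and SD of each genotype (n = 4) as bars. The genotypes overlap for every gene, and WT replicates 3 and 4 and SLMAP3-/- replicate 3 are the 3 lowest lines for Myc, Fosl1, Jun, Junb and, by a margin of 249.2 against 249.3 CPM, Fosl2.

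In the Jun family, Jun, which can bind DNA as a homodimer and drives entry into the cell cycle, was at 177, 191, 131 and 192 CPM in SLMAP3-/- and at 134, 263, 127 and 126 CPM in WT lines. WT replicate 2 was above every other line and the other 3 WT lines were within 126 to 134 CPM. The log2 fold change of Jun was 0.086 ± 0.26 with all lines and 0.42 without WT replicate 2. Junb, often a counterweight to Jun in the cell cycle, was at 162, 174, 132 and 210.1 CPM in SLMAP3-/- and at 136, 207, 92.2 and 130.4 CPM in WT lines. Each genotype held 1 line over 200 CPM, and the difference was 0.26 ± 0.24 on the log2 scale.

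Jund differed from the other 9 genes in how little it moved. It was at 173, 173, 169 and 180.3 CPM in SLMAP3-/- and at 174, 136, 151 and 161 CPM in WT lines, a range of 1.32-fold over all 8. WT replicate 1 reached the SLMAP3-/- values and the other 3 WT lines lay below them. The log2 fold change was 0.16 ± 0.091 (95% interval 0.97-fold to 1.29-fold), and the exact two-sided permutation p of 0.114 was the lowest of the group, where 4 against 4 lines allow no value under 0.0286. Its interval was the narrowest of the 10.

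Egr1, a zinc finger factor induced by growth factors through SRF, had the largest estimate. It was at 227, 221, 167 and 277 CPM in SLMAP3-/- and at 162, 268, 109 and 111 CPM in WT lines. The lowest 3 lines were WT, but WT replicate 2 was the second highest of all 8. The log2 fold change was 0.46 ± 0.30 (unadjusted p = 0.162, edgeR), with a 95% interval from 0.86-fold to 2.20-fold. Without WT replicate 2 it was 0.81 with an unadjusted p of 0.00577, and Jun and Junb also passed an unadjusted p of 0.05 (edgeR). In that fit, 380 of 15866 tested genes passed it. The line left out was the highest WT line of Egr1, Jun and Junb, so these are not separate observations. Without WT replicate 1, Jund passed an unadjusted p of 0.05, as did 546 of 15738 tested genes (edgeR). The adjusted p of every member stayed at or above 0.786 in each alternative.

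Atf3, a repressor of the AP-1 superfamily induced by many stresses, was at 8.83, 11.7, 4.56 and 8.82 CPM in SLMAP3-/- and at 14.6, 5.46, 3.03 and 6.50 CPM in WT lines. WT lines held both its highest and its lowest value, a 4.83-fold range that was the widest of the 10 genes, and the log2 fold change was 0.20 ± 0.48. Myc was at 122, 141, 64.9 and 143 CPM in SLMAP3-/- and at 144, 165, 52.6 and 47.1 CPM in WT lines. The 8 lines fell into 3 low lines, SLMAP3-/- replicate 3 and WT replicates 3 and 4, and 5 high lines from both genotypes, and the gap between them was 50.4% of the whole range on the log2 scale. The log2 fold change of Myc was 0.20 ± 0.45, with a 95% interval from 0.57-fold to 2.33-fold, and was -0.035 without WT replicate 4.

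Most of the group varied more between lines than a typical gene did. The SD of log2 CPM within a genotype was above the median of all tested genes, 0.28, for 9 of the 10 members. It was 0.82 for Fosb, 0.79 for Fosl1, 0.77 for Atf3 and 0.77 for Myc, higher than 86.7%, 85.8%, 85.4% and 85.2% of tested genes. Among the 3749 genes within 1 log2 unit of the level of Myc, 97.5% had a lower SD than Myc, and among the 4604 genes near the level of Fosl1 96.8% had a lower SD. For Fosb this share was 80.8% of 1969 genes. Fos followed at 0.55, then Egr1 at 0.48, Fosl2 at 0.44, Jun at 0.41 and Junb at 0.39. Jund, at 0.11, was the exception, with 9.08% of tested genes below it, and 19.7% of the 2523 genes near its level. The WT lines had the larger SD for all 10 genes, 1.00 against 0.48 for Fosl1 and 0.15 against 0.039 for Jund. This difference in spread was not tested, and its share over all tested genes was not computed. The genes were measured in the same lines, so these are not 10 separate observations.

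**Figure D4:**
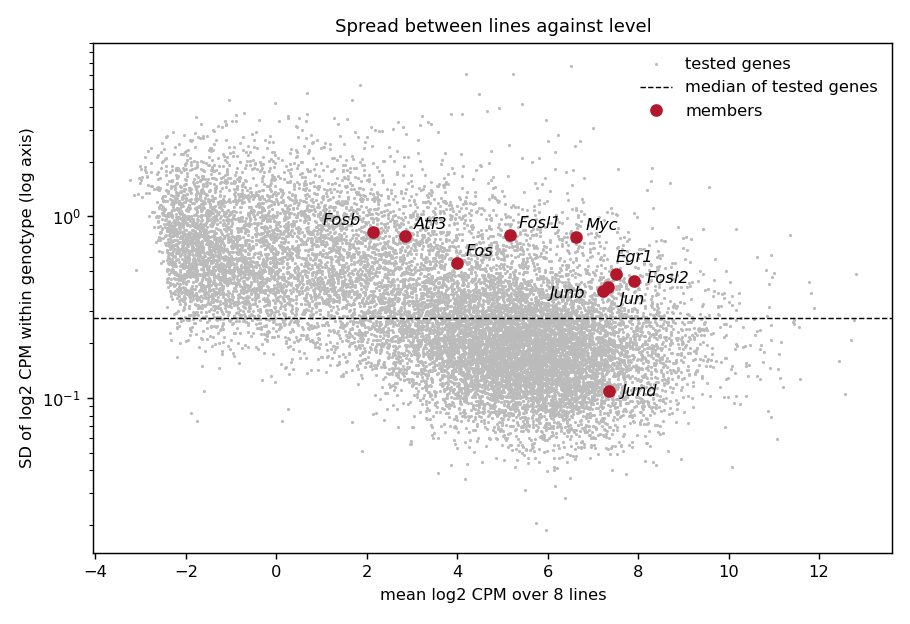
SD of log2 CPM within genotype (log axis) against mean log2 CPM over 8 lines for 15461 tested genes (grey) and the 10 genes (red), with the median SD of 0.28 as a dashed line. Only Jund (0.11) lies below the median, and Fosb, Fosl1, Atf3 and Myc lie between 0.77 and 0.82.

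Junb varied together with Egr1 and with Fosl2 from line to line. Because the values of Myc fell into separate clumps, no correlation over the 8 lines is given for it with any gene, which leaves 36 pairs of 9 genes. Of these, 30 had a Pearson r above 0, with a median of 0.50. In the exact permutation test over all 40320 orders of the lines, 2 pairs passed an adjusted p of 0.05. The same counts for pairs of other genes were not computed, so whether the members covary more than other genes do was not tested. The closest genes outside the group reached r = 0.99 with Fosl1 and with Fos, above every pair of members. Junb and Egr1 had r = 0.93 (two-sided p = 0.00067, adjusted p = 0.0121, exact permutation) and rho = 0.95 (p = 0.00114, adjusted p = 0.0137, exact permutation). Fosl2 and Junb had r = 0.91 (p = 0.000223, adjusted p = 0.00804, exact permutation) and rho = 0.98 (p = 0.000397, adjusted p = 0.0137, exact permutation). Without the 2 lines farthest from the median of the gene named first, r was 0.89 and 0.86, and after centring each genotype on its own mean r was 0.92 for each pair.

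The call for Fosl2 and Junb was lost without SLMAP3-/- replicate 2 or without WT replicate 3, where its r fell to 0.81, and the number of pairs called ran from 1 to 8 as single lines were left out. Jun with Egr1 (r = 0.87) and Jun with Junb (r = 0.86) came next, each with an adjusted p of 0.06 by Pearson r. By Spearman rho, 6 pairs passed, all of the pairs among Fosl2, Jun, Junb and Egr1. Fos stood outside this set, with r between -0.62 (Atf3) and 0.40 (Jun) against the other 8 genes and no pair called. WT replicate 1 had both the lowest Fos and the highest Atf3.

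The same lines were low in most of the group. WT replicate 3 was among the 3 lowest lines for 9 of the 10 members and the lowest for 6, Fosb, Fosl1, Fosl2, Junb, Egr1 and Atf3. WT replicate 4 was among the 3 lowest for 8 and SLMAP3-/- replicate 3 for 6. WT replicate 2 was among the 3 highest for 8, and SLMAP3-/- replicates 2 and 4 for 7 each. The 3 lines that were often low also had the highest TMM factors, 1.06, 1.02 and 1.04 against 0.940 to 1.00 in the other 5, and the part of library composition in the pattern was not tested. With size factors of DESeq2 in place of TMM, 2 pairs were again called, Junb with Egr1 and Fosl2 with Junb. In the deposited table, the names of the columns for SLMAP3-/- replicate 3 and for WT replicate 4 contain 1 number in common, and what it stands for is not given in the sources used here.

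**Figure D5:**
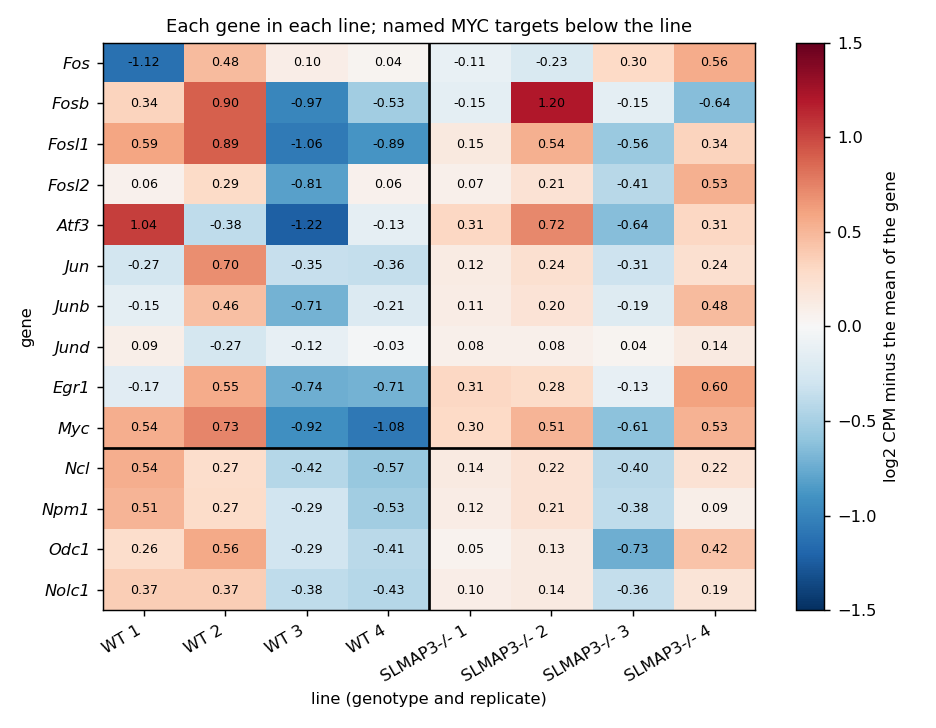
Log2 CPM of each gene minus its mean over the 8 lines, by line, for the 10 genes and, below the horizontal rule, 4 MYC target genes. WT replicates 3 and 4 and SLMAP3-/- replicate 3 are below the mean for Myc (-0.92, -1.08 and -0.61) and for Ncl, Npm1, Odc1 and Nolc1, while Jund stays within 0.27 of its mean in every line.

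Genes that MYC is known to drive were mostly low in the same lines as Myc. Ncl, encoding nucleolin, was at 1149, 1218, 791 and 1218 CPM in SLMAP3-/- and at 1524, 1256, 779 and 706 CPM in WT lines. Odc1, the rate-limiting enzyme of polyamine synthesis, was at 231, 246, 135 and 299.8 CPM in SLMAP3-/- and at 268, 331, 183 and 168 CPM in WT lines. For both genes the 3 lowest lines were those of Myc. The same 3 lines were the lowest for 15 of 20 MYC target genes, among them also Npm1 and Nolc1, for 5 of the 10 members including Myc itself, and for 11.2% of all tested genes. Among the 5, Fosl2 counts by a near tie, with WT replicate 4 at 249.2 and WT replicate 1 at 249.3 CPM. The pattern was not limited to MYC targets. The 3 lines were also the lowest for 6 of 15 AP-1 targets, 10 of 30 other immediate early genes, 6 of 21 kinases and SRF cofactors and 2 of 11 ERK feedback genes, and for 1 of 18 bZIP partners and 0 of 12 MYC partner and antagonist genes. Between genotypes, 0 of the 20 MYC targets were called by edgeR or DESeq2, and their median log2 fold change was -0.0099. By edgeR, 0 had an unadjusted p under 0.05, beside 1.81% of all tested genes.

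Of genes outside the group, the patterns most like that of Fosl1 over the 8 lines were those of Fkbp1a, Pgs1 and Pgam5, each with r = 0.99. For Jun they were Ssr4 (r = 0.97), Actn4 (0.96) and Cdipt (0.95), and for Fos they were Deaf1 (0.99), Gm8319 (0.98) and Nos1ap (0.96). Gm8319 was near the floor, at log2 CPM of -2.03 to -1.07. The gene ranked first for each member moved little over the lines, Fkbp1a 1.41-fold, Ssr4 1.38-fold and Deaf1 1.41-fold, while Nos1ap moved 4.36-fold. These are the highest of 15451 values of r for each member and are given as a description. The same ranking named Elof1, Dph2 and Nat10 for Myc. With 3 low and 5 high lines of Myc, a gene split in the same way ranks high, so no value is given. These names show no closer likeness than that split, and Elof1 moved only 1.23-fold.

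The genes around AP-1 and MYC were read from the same fit. They were 18 tested bZIP partners, 30 other immediate early genes, 21 kinases and SRF cofactors of the ERK, JNK and p38 pathways, 11 ERK feedback genes, 15 AP-1 targets of fibroblasts, 12 MYC partners and antagonists and 20 MYC targets. Of these, 0 genes were called in either direction by edgeR or DESeq2, beside 0.00647% of all tested genes by edgeR. By edgeR, 1 had an unadjusted p under 0.05, beside 1.81% of all tested genes. That gene was Mmp3, encoding stromelysin-1, an AP-1 target, at 1.64, 9.37, 9.56 and 10.7 CPM in SLMAP3-/- and at 2.08, 1.39, 3.63 and 3.62 CPM in WT lines. Only SLMAP3-/- replicate 1 lay among the WT values (log2 fold change 1.54 ± 0.56, unadjusted p = 0.0242, adjusted p = 1.00, edgeR). The other AP-1 targets named by rule did not pass the test. Plaur, the urokinase receptor gene, had a log2 fold change of 0.12 ± 0.46, Hbegf, a growth factor gene, 0.0024 ± 0.58, and Ccnd1, the cyclin D1 gene, -0.65 ± 0.54. Of the 15 AP-1 targets, all 15 had an SD above the median of tested genes, and for Plaur and Hbegf the 3 lowest lines were those of Myc.

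Of the other immediate early genes, 20 of 30 had estimates above 0, with a median log2 fold change of 0.10 against -0.0014 over all tested genes. Egr2, the relative of Egr1, had a log2 fold change of 0.42 ± 0.46, and the nuclear receptor gene Nr4a1 had 0.34 ± 0.39. Zfp36, whose product speeds the decay of unstable messenger RNAs, had 0.22 ± 0.24, Ier2 0.100 ± 0.17, Ier3 0.018 ± 0.21 and the MAP kinase phosphatase gene Dusp1 -0.081 ± 0.20. Their SD was above the median of tested genes for 22 of the 30, and 10 of the 30 had the 3 lowest lines of Myc, Srf and Ier3 among them.

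Of 18 bZIP partners, 5 had an SD above the median of tested genes, as did 6 of 21 kinases and SRF cofactors. Atf2, a partner of Jun, had a log2 fold change of -0.072 ± 0.12, Atf4, the effector of the integrated stress response, -0.023 ± 0.16, Jdp2, a repressor of Jun activity, -0.099 ± 0.14, Maff -0.088 ± 0.23 and Batf3 0.0072 ± 0.27. Mapk3, encoding ERK1, had -0.035 ± 0.20, Elk3, a ternary complex factor, -0.12 ± 0.16 and Srf 0.16 ± 0.29. The ERK feedback genes Dusp6, Spry2 and Phlda1 had -0.10 ± 0.31, 0.077 ± 0.18 and -0.017 ± 0.40. Among the MYC partners, Max had -0.14 ± 0.14, Mxd4 -0.090 ± 0.24 and Mnt 0.085 ± 0.16, and Mycn, a second MYC family gene, did not pass the filter on low counts.

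Reads of several members may include those of a neighbour, since the counting setting for strand is not given in the sources used here. In GENCODE M21 on GRCm38, the gene spans of Fosl1 (chr19:5447547-5455946), Jun (chr4:95049034-95052222), Junb (chr8:84974484-84978718), Jund (chr8:70698949-70700616) and Atf3 (chr1:191170296-191218039) overlap the opposite-strand genes Ccdc85b, Junos, Prdx2, Gm11175 and Gm24748, respectively. Myc (chr15:61985391-61990374), Fos (chr12:85473890-85477273), Fosb (chr7:19302696-19310051), Fosl2 (chr5:32135801-32157842) and Egr1 (chr18:34859823-34864984) had no overlapping gene on the opposite strand. With all transcripts read in the sense direction, stretches of 31 bases shared with another gene were present in Fosb (2, with Gm44831) and Fosl2 (6, with Usp4). None were found in the other 8. Matches to the opposite strand were not searched, so this says nothing on the opposite-strand neighbours.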

How the data were processed

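RNA of 8 MEF lines was sequenced from stranded messenger RNA libraries. Per the paper's methods and the labels, the authors ran Salmon against GENCODE M25 transcripts (GRCm38) and deposited an estimated count per gene and line, with length scaling but no scaling between libraries. Their second table holds only their DESeq2 comparison (mean, fold change, error, p-values) and was not used. Tool versions and strand settings are not given in the sources used here.

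Genotypes came from the labels. Estimated counts were rounded, genes kept by filterByExpr (minimum count 10), libraries scaled by TMM, and SLMAP3-/- tested against WT by edgeR 4.0.16 (quasi-likelihood, no covariates, R 4.3.3), with Benjamini-Hochberg adjusted p-values over the whole table and a threshold of 0.05. Intervals are at 95% from the same fit. Log2 CPM used a prior count of 2. Correlations used exact permutation in Python 3.11.15 with numpy 2.4.6, adjusted over 36 pairs. A gene was taken as clumped where its largest gap exceeded 50% of its range with at least 2 lines on each side, a rule set after seeing the data. Exon lengths, overlaps and shared stretches came from GENCODE M21, promoters from RefSeq GRCm38.p6.

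The genes named were Slmap, the 10 members, context genes called (0), 29 context genes fixed by name, and the 3 genes most like each of Myc, Fos, Fosl1 and Jun; genes named for their low lines or as extremes of a list were picked once values had been seen. Members and lists were chosen with earlier results of these data known. Alternatives were DESeq2 1.42.0, limma-voom (limma 3.58.1), DESeq2 size factors, other filters, robust fitting, a threshold of 0.1, a replicate block, other lengths, centring, prior count and rank correlation, and leaving out each line. The tests were tried on simulated data first, with 4 and 4 lines and 200 of 15461 genes changed. Of the genes changed 2-fold, edgeR recovered 74 with 3 false calls, limma-voom 73 with 5 and DESeq2 119 with 59. At 4-fold edgeR recovered 156 with 10 false calls. Many 2-fold changes would thus be missed by the main test. Totals of 49879059 to 63322486 counts per line left counting error, at the lowest count of each member, at 16.4% of its SD between lines or less.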

Additional observations from a re-analysis of the deposited data

Results flagged for a closer look

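In 2 cases a single line stood far from the other 3 of its genotype by Dixon's gap ratio, among 22 groups of 4 lines examined (the 10 members and Slmap in each genotype), a check that chance passes in about 1 in 20 groups. Jun was at 263 CPM in WT replicate 2, where the gap to the next WT line was 0.942 of the whole WT range. Fosb was at 10.0 CPM in SLMAP3-/- replicate 2, with a gap of 0.843 of the range. Those 2 lines were among the 3 highest for 8 and 7 of the 10 members.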

How the results depend on the processing

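No member and no gene of the context lists was called in any of the 16 alternatives. Slmap was the only gene called in the main test and in 14 alternatives; DESeq2 called 11 genes, with Slmap among them, and the fit with the replicate block called 0 genes (294 at an unadjusted p under 0.05, edgeR). Deviations of same-numbered lines correlated weakly, at -0.16, 0.058, 0.19 and -0.0032, and only replicate 3 was the best match in each direction. Whether the replicate numbers pair the lines was not tested. Leaving out single lines, the number of genes called stayed at 1, members and context genes at 0, and members with an SD above the median at 8 to 9. Single lines turned the sign of 6 log2 fold changes, which ranged from -0.035 to 0.53 for Myc, -0.051 to 0.40 for Fos, -0.41 to 0.53 for Fosb, -0.21 to 0.42 for Fosl1, -0.016 to 0.42 for Jun and -0.063 to 0.77 for Atf3. No other alternative turned a sign. The number of pairs called, 2 in the main test, was 5 after centring on the genotype mean, 6 by Spearman rho and 1 to 8 without 1 line (8 without WT replicate 2); the cause was not tested. With the longest transcript as length, Junb was at 85.9, Fosl2 at 37.9 and Fosb at 1.31 CPM per kb, and Myc came before Egr1. By that length, Fosl2 made up 55.7% ± 5.55 and Fosl1 29.9% ± 7.63 of the Fos family (SD, n = 8 lines). Jund made up 42.4% ± 6.66 and Junb 35.7% ± 4.17 of the Jun family, so the shares depend on the length used. With 4 lines per genotype and this spread, the intervals of Myc, Fosb, Fosl1, Egr1 and Atf3 reach past 2-fold.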

Other observations

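The extremes of the context lists are given as values. Among the other immediate early genes, Egr4 had the highest log2 fold change, 1.11, and Dusp2 the lowest, -0.87, and neither passed an unadjusted p of 0.05 by edgeR. Among the MYC partners and antagonists, Mycl was highest at 0.50 and Mxi1 lowest at -0.24. Among the kinases and SRF cofactors, Rps6ka1 was highest at 0.43. Among ERK feedback genes, Dusp4 was highest at 0.41 and Spry4 lowest at -0.14.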
